A study of Rattus norvegicus with 11 samples.

Results

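Messenger RNAs of the red blood cell were detected in every rat trigeminal ganglion (TRG) analysed, and for 4 of the 5 genes described the lowest and the highest of the 11 ganglia lay 5.47-fold to 12.3-fold apart. None of the 5 passed the test for a difference between the sides of the face. The genes are 5 with well-known roles in the red cell, Hba-a1, Hbb, Alas2, Slc4a1 and Epb42. They were chosen by name, as the probes whose RefSeq accession belongs to one of these genes. Each gene had 1 probe with 1 spot on the array, so the 5 genes were 5 of the 24684 probes tested, of which 14294 could be given a gene symbol. All 5 probes were well above background by the scanner software on all 11 arrays, and none of their spots was marked as an outlier.

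Red blood cells carry oxygen bound to haemoglobin, a tetramer of alpha and beta globin chains that each hold a haem group. Mature red cells of mammals have no nucleus, but reticulocytes, the youngest cells released into blood, still hold messenger RNA for globin, haem synthesis and the membrane. The TRG, a ganglion of facial sensory neurons and their glia, is not known as a site of red cell formation. Alas2 encodes the erythroid form of 5-aminolevulinate synthase, the first enzyme of haem synthesis. Hba-a1 encodes an alpha globin and Hbb a beta globin. Slc4a1 encodes band 3, the anion exchanger that carries chloride and bicarbonate across the red cell membrane, and Epb42 encodes protein 4.2, which ties band 3 to the membrane skeleton.

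The samples were TRG of male Wistar rats taken 7 days after complete Freund's adjuvant (CFA, killed mycobacteria in paraffin oil) had been given under the skin of 1 whisker pad, 50 µl at 1 mg/ml, under ketamine and xylazine anaesthesia. The CFA group comprised 6 ganglia of the injected side (rats 1, 2, 3, 5, 6 and 8) and the contralateral group 5 ganglia of the other side (rats 1, 2, 3, 5 and 6). The contralateral ganglia therefore also came from animals with CFA inflammation, and no ganglion of an uninjected rat was among them. The rats were killed by exsanguination, per the study's methods, which say nothing of a perfusion. RNA of each ganglion was hybridised to a 1-colour Agilent array of mRNA and lncRNA probes. The sources used here do not give the age of the rats. Both sides of a rat share the animal. The p-values below treat the 11 arrays as separate samples, except where the rat is named as a block.

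The array-level values differed moderately. The median processed signal was 74.6 to 117 on the CFA arrays and 87.9 to 96.4 on the contralateral arrays, and the share of spots well above background was 68.9% to 82.3% on CFA and 71.6% to 82.8% on contralateral arrays. The array of CFA rat 2 had the lowest value of both measures. The arrays lay on 5 slides scanned on 3 days, and slide 2 was the only one with both groups (CFA rat 1, contralateral rats 5 and 6). The defining markers of sensory neurons, such as Calca, Prph, Nefh and Scn10a, were well above background on all 11 arrays.

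The sequences just upstream of these genes are shown as a description of the genes. They are the 250 bases before the annotated start, 5′ to 3′ in the direction of transcription, from RefSeq (build GRCr8), which had an entry for 4 of the 5 genes, all but Slc4a1. Capitals mark matches to 4 kinds of short motif. These were the motif bound by GATA factors (AGATAA, in which the first letter may also be T and the last letter also G), the CACCC-box form CCNCNCCC bound by Klf1 and its relatives, CCAAT, each on both strands, and a TATA box (TATAAA, or the form ATAAAA) on the printed strand.
Alas2, chrX:22895200-22895449, plus strand: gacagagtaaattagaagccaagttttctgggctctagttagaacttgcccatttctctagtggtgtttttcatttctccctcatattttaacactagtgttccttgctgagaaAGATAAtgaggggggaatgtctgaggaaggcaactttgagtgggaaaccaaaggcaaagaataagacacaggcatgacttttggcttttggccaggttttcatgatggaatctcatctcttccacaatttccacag
Hba-a1, chr10:15842581-15842830, minus strand: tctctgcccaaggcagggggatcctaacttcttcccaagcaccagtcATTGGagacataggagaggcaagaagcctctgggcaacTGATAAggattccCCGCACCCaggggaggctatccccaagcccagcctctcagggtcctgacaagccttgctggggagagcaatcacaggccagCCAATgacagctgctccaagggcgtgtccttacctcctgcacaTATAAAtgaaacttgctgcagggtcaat
Hbb, chr1:167663722-167663971, minus strand: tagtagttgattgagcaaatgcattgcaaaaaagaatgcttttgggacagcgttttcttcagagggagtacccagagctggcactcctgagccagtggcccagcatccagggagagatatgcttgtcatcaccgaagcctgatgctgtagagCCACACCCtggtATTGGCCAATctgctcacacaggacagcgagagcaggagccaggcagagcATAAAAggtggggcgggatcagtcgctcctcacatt
Epb42, chr3:128451684-128451933, minus strand: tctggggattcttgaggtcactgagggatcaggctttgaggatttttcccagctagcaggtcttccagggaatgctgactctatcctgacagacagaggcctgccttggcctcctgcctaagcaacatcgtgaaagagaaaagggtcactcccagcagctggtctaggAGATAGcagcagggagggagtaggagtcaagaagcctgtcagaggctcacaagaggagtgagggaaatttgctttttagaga

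A GATA motif lay within the window of Alas2 (AGATAA, at positions -136 to -131 from the start), of Hba-a1 (TGATAA, -165 to -160) and of Epb42 (AGATAG, -82 to -77), and none of these letters was found in that of Hbb. Such a motif was present in 27.0% of the 33469 rat promoter windows of this length. The CCNCNCCC motif was present in the windows of Hba-a1 and Hbb, as in 42.8% of all windows. The CCAAT motif was found in the windows of both globin genes, in 2 places each and once on either strand, and in 34.0% of all windows. The same windows, and 15.2% of all windows, held a TATA box. These matches are letters only and were not tested for binding, and no link between them and the levels on the arrays was tested.

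Alas2 measured the haem synthesis arm. Its log2 normalised signal in the CFA ganglia was 13.17 at the lowest (rat 2), 14.35 at the median and 15.39 at the highest (rat 6). In the contralateral ganglia it was 14.71 in rat 1, 14.81 in rat 2, 14.13 in rat 3, 14.19 in rat 5 and 15.94 in rat 6. Rat 6 was the highest ganglion of either group, and the groups overlapped. From the lowest to the highest array the level of Alas2 spanned 6.86-fold.

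Hba-a1, the alpha globin gene, had a log2 signal of 14.18 (rat 2) at the lowest, 15.50 at the median and 16.22 (rat 6) at the highest in the CFA ganglia. The contralateral values were 15.58 in rat 1, 15.24 in rat 2, 14.67 in rat 3, 15.43 in rat 5 and 16.63 in rat 6. The extreme ganglia were the same as for Alas2, CFA rat 2 at the bottom and contralateral rat 6 at the top, a span of 5.47-fold. The groups overlapped here too.

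Hbb, the beta globin gene, varied far less. Its log2 signal in the CFA ganglia was 17.23 (rat 8) at the lowest, 17.43 at the median and 17.75 (rat 3) at the highest. In the contralateral ganglia it was 17.24 in rat 1, 17.30 in rat 2, 17.60 in rat 3, 17.55 in rat 5 and 17.56 in rat 6. The lowest and the highest array were both CFA arrays, and they differed by 1.43-fold. As scanned, before normalisation between arrays, the signal of this probe lay between 144932 and 255691 with a scanner saturation value of 778096 to 778231, and no spot of the 11 arrays was saturated. Counted from the brightest of the 24684 probes, Hbb ranked 14 to 83 over the arrays, and Hba-a1 239 to 2153. Whether a place so near the top of the scale narrowed the spread of Hbb was not tested.

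The membrane genes had the widest ranges. Slc4a1 had a log2 signal of 7.83 (rat 2), 9.52 (median) and 10.87 (rat 6) in the CFA ganglia. In the contralateral ganglia Slc4a1 was at 9.15 in rat 1, 9.29 in rat 2, 8.38 in rat 3, 9.09 in rat 5 and 11.45 in rat 6. The span of Slc4a1 over all arrays was 12.3-fold, and contralateral rat 6 stood well above the other contralateral ganglia. Epb42 had a log2 signal of 7.60 (rat 2), 8.93 (median) and 10.10 (rat 6) in the CFA ganglia. Its contralateral values were 9.68 in rat 1, 9.32 in rat 2, 8.57 in rat 3, 8.82 in rat 5 and 10.78 in rat 6. Epb42 spanned 9.05-fold, again from CFA rat 2 to contralateral rat 6.

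**Figure D1:**
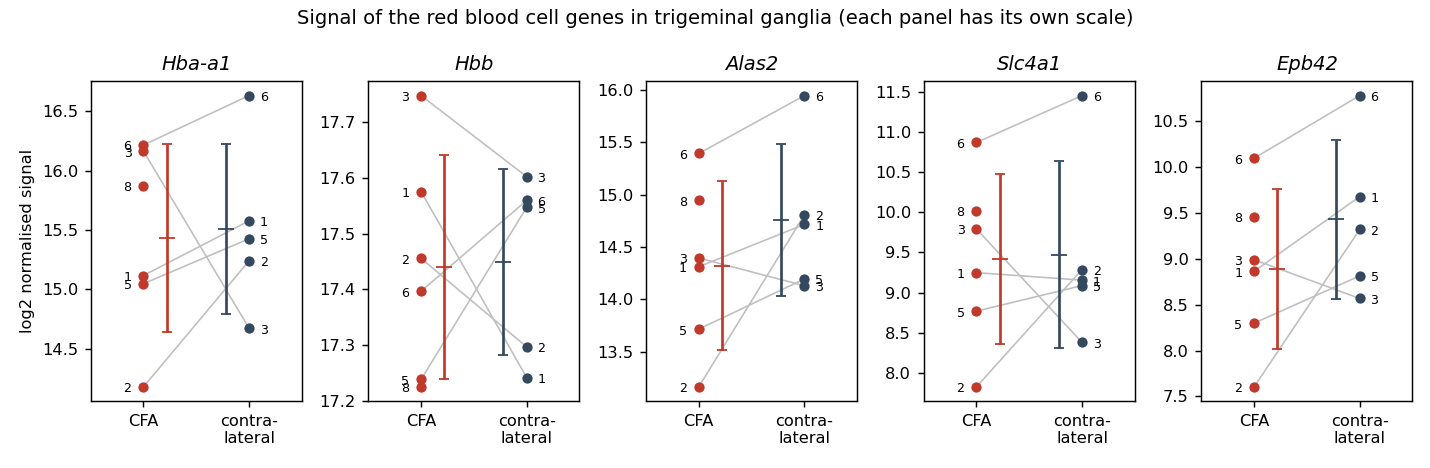
The log2 normalised signal (y axis, a scale of its own for each gene) of the red blood cell genes in 6 CFA and 5 contralateral ganglia. Points are ganglia labelled with the rat number, grey lines join the sides of a rat, and the bars show the mean ± SD of each group. The groups overlap for every gene, and rat 6 is the highest rat on both sides for every gene except Hbb.

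The spread over the 11 arrays was large for most of these genes when set beside the other probes. The SD of the log2 signal was 1.05 for Slc4a1, and 4.45% of all probes had an SD at least as large. The SD was 0.87 for Epb42, 0.77 for Alas2 and 0.72 for Hba-a1, values reached by 7.80%, 11% and 12.5% of the probes. Hbb had an SD of 0.18, which 77.8% of the probes reached. In a bulk ganglion, fewer red cells and less of these RNAs in each cell cannot be told apart.

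No difference between the CFA and the contralateral side passed the test for any of the 5 genes. Epb42 averaged 8.89 ± 0.87 in CFA ganglia and 9.43 ± 0.87 in contralateral ganglia (SD, n = 6 and 5), a log2 difference of -0.55 with a standard error of 0.48 (95% interval -1.61 to 0.52, adjusted p = 0.658 from limma). Alas2 averaged 14.32 ± 0.81 and 14.76 ± 0.73 in the CFA and the contralateral ganglia, a difference of -0.44 ± 0.43 (SE, 95% interval -1.38 to 0.51, limma adjusted p = 0.686). The log2 difference of Hba-a1 was -0.08 (95% interval -1.01 to 0.86), that of Slc4a1 -0.05 (-1.40 to 1.29) and that of Hbb -0.01 (-0.27 to 0.25), with limma adjusted p-values of 0.948, 0.977 and 0.978. The intervals of all but Hbb reached a 2-fold change in at least 1 direction, so that a change of that size lay within the error, whereas the interval of Hbb was narrower. The two-sided exact permutation test over the arrays gave p-values of 0.327 for Epb42, 0.379 for Alas2, 0.870 for Hba-a1, 0.911 for Hbb and 0.939 for Slc4a1, where the smallest p this design allows is 0.00216.

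No member reached the study's threshold of an unadjusted p of 0.05 or less with a fold change over 2, which 2.02% of all probes reached. None had an unadjusted limma p of 0.05 or less (10.8% of all probes), an adjusted p of 0.05 or less (0% of all probes) or groups without overlap (1.20% of all probes).

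**Figure D2:**
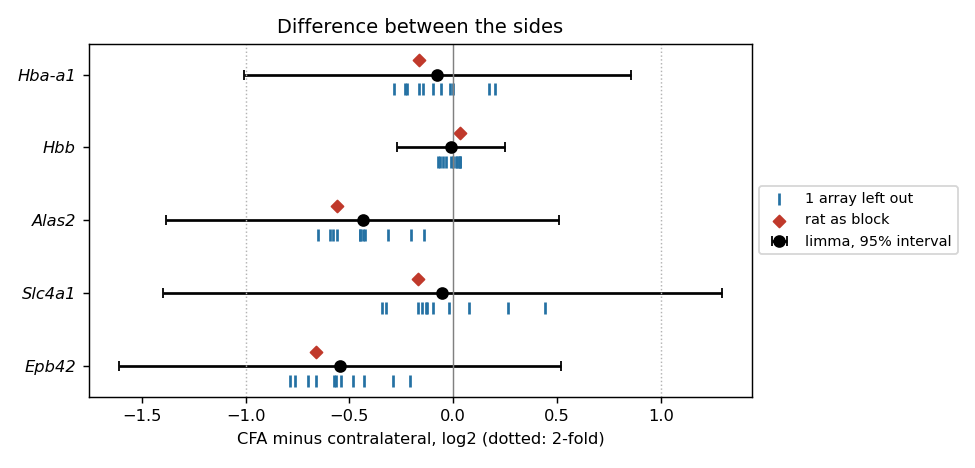
CFA minus contralateral log2 difference (x axis) of each red blood cell gene with its 95% interval from limma (black), the estimate with the rat as a block (diamonds) and the estimates with 1 array left out (ticks). Dotted lines mark a 2-fold change. Every interval includes 0, and Hbb has the narrowest, from -0.27 to 0.25.

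Within the 5 rats with both sides, the difference depended on the rat. Epb42 was lower on the CFA side in 4 of 5 rats, with differences of -0.81 in rat 1, -1.72 in rat 2, -0.52 in rat 5 and -0.68 in rat 6, and higher by 0.42 in rat 3. Alas2 was lower in the same 4 rats, with differences of -1.64 to -0.40, and 0.26 higher in rat 3. Hba-a1 was lower in those 4 rats as well (differences of -1.06 to -0.38), and 1.49 higher in rat 3. Slc4a1 differed by 0.09 in rat 1, -1.46 in rat 2, 1.41 in rat 3, -0.32 in rat 5 and -0.58 in rat 6, so 3 of 5 rats were lower on the CFA side. Hbb was lower in rats 5 and 6 and higher in rats 1, 2 and 3, by no more than 0.33 in either direction.

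Slide and group were nearly the same thing on these arrays. Within slide 2, the CFA array of rat 1 minus the mean of contralateral rats 5 and 6 was -0.91 for Hba-a1, -0.76 for Alas2, -1.02 for Slc4a1, -0.93 for Epb42 and 0.02 for Hbb. A fit with the slide as a block gives these same differences, since no other slide holds both groups, and so rests on 1 CFA array. Within the scan day that held both groups the difference was -0.39 for Hba-a1, -0.45 for Alas2, -0.22 for Slc4a1, -0.57 for Epb42 and 0.13 for Hbb. The sign for Hba-a1 and Slc4a1 rested on single ganglia. Without contralateral rat 6 their differences were 0.20 and 0.44, and without CFA rat 2 they were 0.17 and 0.27.

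From ganglion to ganglion, 4 of the genes varied together. Over the 11 arrays Alas2 and Epb42 had a Pearson's r of 0.989 (Spearman's rho 0.973), Hba-a1 and Slc4a1 an r of 0.948 (rho 0.918), Alas2 and Slc4a1 0.933 (rho 0.945), and Slc4a1 and Epb42 0.921 (rho 0.891). The pairs of Hba-a1 with Epb42 and with Alas2 had an r of 0.882 and 0.871 (rho 0.891 and 0.882). After adjustment over the 10 pairs, the permutation p of these 6 pairs was 0.0001 to 0.000983 for r and 0.0001 to 0.00107 for rho, the lowest being the smallest that 100000 resamples allow for 10 pairs. As a measure of how common such values were, an r of 0.871 or more with Alas2 was found for 41 of the other 24637 probes without a missing value (0.166%), and the median r of all probes with Alas2 was -0.01.

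By its signal, which was near the top of the scale on every array, Hbb did not follow the other 4 genes. Its r was 0.101 with Hba-a1, 0.0628 with Slc4a1, -0.0458 with Alas2 and -0.0721 with Epb42, with an adjusted permutation p of 0.893 for each. The corresponding rho values lay between -0.155 and 0.

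**Figure D3:**
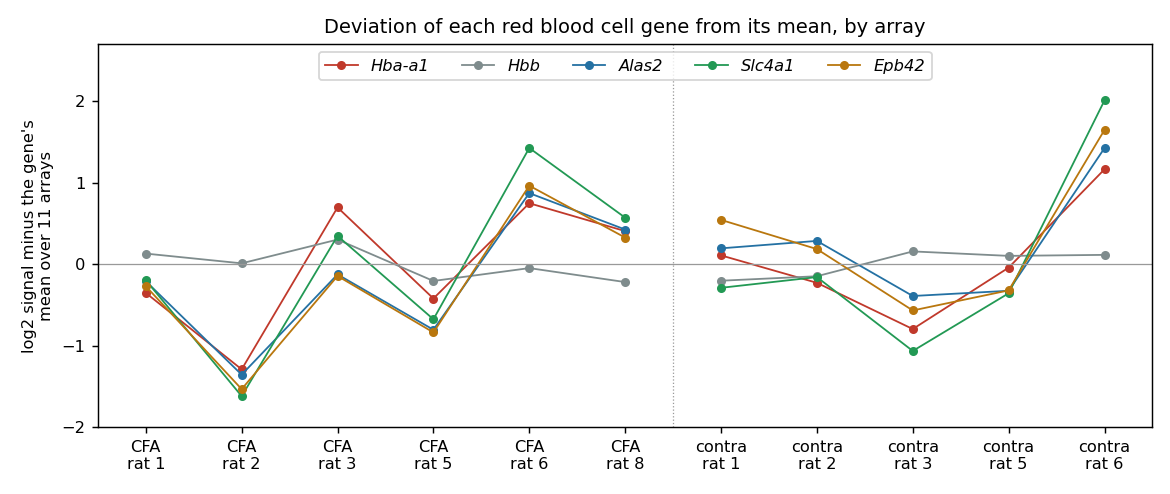
The log2 signal of each red blood cell gene minus its own mean over the 11 arrays (y axis), for the CFA arrays (left of the dotted line) and the contralateral arrays (right). Alas2, Hba-a1, Slc4a1 and Epb42 are lowest in CFA rat 2 and highest in contralateral rat 6, and the line of Hbb stays near 0.

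The 11 arrays came from 6 rats, so the pairs were also computed on the 6 CFA arrays, 1 for each rat. The 6 pairs without Hbb had an r of 0.891 to 0.997 there (exact permutation p adjusted over 10 pairs 0.00463 to 0.0347), and the 4 pairs with Hbb had an r of -0.0682 to 0.140 (exact adjusted p = 0.990 for each). When the arrays farthest from the median of the first gene of a pair were left out, 2 for each pair, r was 0.677 to 0.967 for the 6 pairs, lowest for Hba-a1 with Alas2. For 5 of these 6 pairs the arrays left out were CFA rat 2 and contralateral rat 6. With the group means removed the 6 pairs had an r of 0.897 to 0.988, with the slide means removed 0.917 to 0.991 and with the means of the scan days removed 0.913 to 0.986. The differences between the sides of the 5 rats had an r of 0.855 to 0.966 for the same pairs.

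The values for Hbb depended on the batch and on the scaling. With the slide means removed, its r with the other genes was 0.555 to 0.70, and with the scan day means removed 0.183 to 0.394. With each array scaled to its 75th percentile it was -0.353 to -0.200, and with no normalisation between arrays -0.459 to -0.277. The 6 pairs without Hbb kept an r of at least 0.841 under those scalings. CFA rat 2, the lowest array for the 4 genes, also had the lowest median signal and the lowest share of spots above background. Without that array the 6 pairs had an r of 0.803 to 0.983, and without contralateral rat 6, the highest array, 0.814 to 0.982.

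The other globin list genes differed in which of the 2 globin members they followed, and some followed neither closely. The r values given from here on describe the 11 arrays and carry no test. Hba-a2, a second alpha globin gene, had an r of 0.990 with Hba-a1 and 0.0815 with Hbb, and Hba-a3 an r of 0.861 with Hba-a1 and -0.195 with Hbb. Hbb-b1, a beta globin gene, had an r of 0.924 with Hbb and 0.0957 with Hba-a1. Hbb-bs, also a beta globin gene, had an r of 0.814 with Hba-a1 and -0.231 with Hbb. Hbe1 and Hbe2, by their symbols epsilon-type globins, had an r of 0.590 and 0.348 with Hba-a1 and of 0.138 and 0.151 with Hbb. Hbg1, by its symbol a gamma-type globin, had an r of 0.334 with Hba-a1 and -0.204 with Hbb. Ahsp, the chaperone that holds free alpha globin chains, had an r of 0.960 with Alas2, 0.858 with Hba-a1 and 0.0245 with Hbb. Globin genes of 1 kind are near-identical copies in rats, and the probe of one may also bind the RNA of another, so values for single copies are uncertain.

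**Figure D4:**
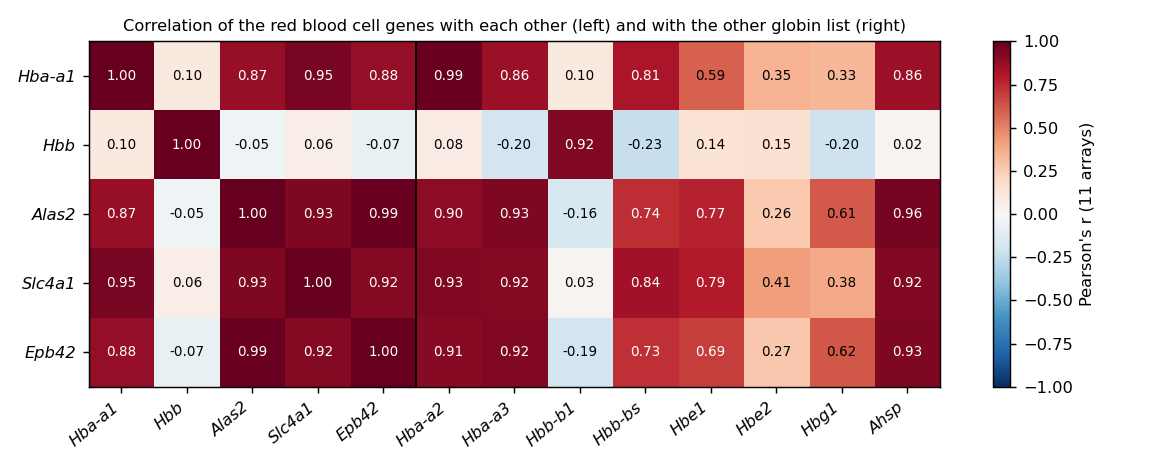
Pearson's r over the 11 arrays between the red blood cell genes (rows) and each other (left of the line) or the genes of the other globin list (right). Red is positive and blue negative. The column of Hbb is pale except for Hbb itself, and its one strong partner is Hbb-b1 (0.92).

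Of 80 further genes of the red cell in 6 lists (other globins and Ahsp, membrane, haem synthesis and transport, haem and haemoglobin clearance, erythroid transcription and signalling, and enzymes), 56 were measured. None passed the study's threshold in either direction with limma. At an unadjusted limma p of 0.05 or less, 5 of the 56 were lower on the CFA side (8.93%, against 6.75% of all probes) and 0 were higher (4.02% of all probes), and at the same limit of the exact permutation test 4 were lower and 0 higher. With the rat as a replicate block 10 list genes were at that limit of limma in either direction, and no member was. For the counts of 4 and 10 the share over all probes was not computed, so they have no background to be set against. No list gene passed an adjusted p of 0.05. The median log2 difference was -0.15 over the 56 genes and -0.04 over all probes. A negative difference was measured for 41 of the 56 (73.2%), against 57.5% of all probes. These signs are not independent, since many of the genes varied together. Contralateral rat 6 was the highest array for 24 of the 56 and CFA rat 2 the lowest for 14. The signs were not counted again without these arrays, so their weight in the count was not tested.

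The 5 genes were Hbg1, Urod, Fech, Gfi1b and Pklr. Hbg1 averaged 4.93 ± 0.16 in CFA and 5.42 ± 0.17 in contralateral ganglia (limma unadjusted p = 0.000829, adjusted p = 0.239), and its groups did not overlap. Urod and Fech, enzymes of later steps of haem synthesis, had log2 differences of -0.29 and -0.25 (limma adjusted p = 0.332 and 0.418). Gfi1b, a repressor needed for red cell and platelet precursors, had a difference of -0.49, and Pklr, the pyruvate kinase of red cells and liver, one of -0.83 (limma adjusted p = 0.458 and 0.459). Pklr was well above background on 9 of 11 arrays. The exact permutation p was 0.0628 for Gfi1b and 0.0758 for Pklr, so the 4 genes of that test were not all among these 5. The r with Alas2 was 0.765 for Pklr, 0.611 for Hbg1, 0.363 for Urod, 0.137 for Fech and 0.0389 for Gfi1b, so that the 5 genes differed in their likeness to it. The differences of Hbg1, Urod, Fech and Pklr shrank with normexp (to -0.15, -0.18, -0.14 and -0.21) and with no background correction (to -0.24, -0.18, -0.15 and -0.37). Without normalisation between arrays none of the 5 was at an unadjusted limma p of 0.05 or less, with Hbg1 at a difference of -0.39, and with the slide as a block the difference of Fech was -0.07.

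In the other lists the smallest p belonged to Xk, a membrane protein of the red cell, and to Ftl1, the ferritin light chain. Xk had a log2 difference of 1.21 (limma adjusted p = 0.489) and was well above background on 2 of 11 arrays. Ftl1 had a difference of -0.27 (limma adjusted p = 0.474).

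The likeness to the members differed between the lists. The mean r of a gene with the 5 members had a median of 0.587 over the 8 other globin list genes, 0.549 over the 8 genes of erythroid transcription and signalling and 0.495 over the 11 membrane genes. It was 0.359 over the 8 enzymes, 0.177 over the 10 clearance genes and 0.112 over the 11 genes of haem synthesis and transport, against -0.05 over all probes. An r of 0.8 or more with Alas2 was measured for 13 of the 56 genes (23.2%) and for 122 of 24637 probes (0.495%).

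Among the transcription factors, Klf1, which switches on adult beta globin and other red cell genes, had an r of 0.943 with Alas2, Nfe2 one of 0.948 and Tal1 one of 0.922, while Gata1, the main factor of red cell formation, had 0.472. Sptb, which encodes a spectrin of the membrane skeleton, had an r of 0.945 with Alas2, and Rhd, a Rhesus blood group protein, had 0.994. Slc25a37 (mitoferrin, which brings iron into the mitochondrion) had an r of 0.886 with Alas2, against 0.590 for Cpox, a haem synthesis enzyme that most tissues use. Bpgm, which makes the 2,3-bisphosphoglycerate that lowers the oxygen affinity of haemoglobin, had an r of 0.917, and Gpx1, an antioxidant enzyme of many cells, 0.732. Of the clearance genes, haptoglobin (Hp), haem oxygenase (Hmox1) and biliverdin reductase (Blvra) had the highest mean r over the 5 members, and their r with Alas2 was 0.670, 0.441 and 0.463, against 0.534 for Slc40a1 (ferroportin, the iron exporter).

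Contralateral rat 6 was the highest array for 24 of the 56 genes (42.9%) and for 4.79% of all probes. CFA rat 2 was the lowest array for 14 of the 56 (25.0%) and for 9.39% of all probes.

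The 10 probes with the highest mean r with the members, of 11433 with a symbol and a signal well above background on all arrays, included further red cell genes. Alox15, a lipoxygenase that acts in the clearing of mitochondria from reticulocytes, led with a mean r of 0.785. It was followed by Hemgn (hemogen, a nuclear protein of blood cell precursors, 0.768), Cd52 (a surface glycoprotein of leukocytes, 0.764), Hba-a2 (0.761), Ybx3 (a cold shock domain protein that binds RNA, 0.758) and Rhd (0.746). Rbm38, an RNA-binding protein that acts in red cell splicing, had 0.743, Ahsp 0.740, Myo5c, an unconventional myosin, 0.739 and Cthrc1, a secreted collagen triple helix repeat protein, 0.727. The 10 were picked for their r over these same arrays, so shared extremes and a high r with Alas2 largely follow from that choice. All 10 were highest in contralateral rat 6, and all but Myo5c were lowest in CFA rat 2. Their ranges over the arrays were 2.54-fold to 12-fold, and their r was 0.896 to 0.994 with Alas2 but only -0.0547 to 0.245 with Hbb. The CFA minus contralateral difference of the 10 was -0.61 to -0.11, with limma unadjusted p-values of 0.252 to 0.648.

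The probes with the lowest mean r were Dnal4, a dynein light chain (-0.689), Cgref1, a calcium-binding protein (-0.680), Ankrd34b (-0.677), Kctd9 (-0.662) and Slc22a17, a receptor for lipocalin 2 (-0.654). Dnal4, Ankrd34b, Kctd9 and Slc22a17 were lowest in contralateral rat 6, where the red cell genes were highest, and Cgref1 was lowest in CFA rat 6. These 5 were picked for a low r over the same arrays, so such opposite extremes also largely follow from the choice.

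Genes of other cells of the blood followed the members in part. Over the 9 neutrophil genes measured the median of the mean r was 0.465, from 0.0126 for Ltf (lactoferrin) to 0.595 for Retnlg, and the summed level of the list ranged from 8009 to 82538 in CFA ganglia and from 7847 to 66262 in contralateral ganglia. The list reached its highest levels in CFA rat 6 for 8 of the 9 genes, among them S100a8, Ngp, Camp and Retnlg. Ltf was the only one of the 9 past the study's threshold, with a log2 difference of 1.21 (limma adjusted p = 0.426), and was well above background on 5 arrays. Over the 9 lymphocyte genes the median was 0.207, with the B cell gene Cd79b at 0.671 and the T cell gene Cd3g at 0.0404, and Prf1 (perforin) was past the threshold with a difference of -1.62 (limma adjusted p = 0.321). The 6 platelet genes had a median of 0.178, with Ppbp at 0.548 and Gp5 at -0.335. The share of these cells in the values of the members was not tested.

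Genes of other cells were less like the members than the neutrophil genes, by the median of each list. The median of the mean r was -0.22 over the 10 sensory neuron genes, from -0.397 for Scn10a to 0.0688 for Calca, and 0.04 over the 9 genes of satellite glia and Schwann cells, from -0.250 for Sox10 to 0.235 for Fabp7. For the 7 endothelial and mural genes it was 0.200, from -0.108 for Cldn5 to 0.472 for Pdgfrb. Of these 7 genes, 6 were well above background on all arrays, among them the endothelial genes Pecam1, Tek and Cldn5. The exception was Cdh5, a defining endothelial marker, which was well above background on no array. For the 7 macrophage genes the median of the mean r was 0.157, from -0.198 for Aif1 to 0.331 for Cd14. The 4 skeletal muscle genes had a median of -0.15, from -0.401 for Acta1 to 0.393 for Tnnt3. The 6 anterior pituitary genes, whose summed level ranged from 4212 to 307447 in CFA and from 2843 to 107237 in contralateral ganglia, had a median of 0.0131, from -0.170 for Pomc to 0.0655 for Tshb. The pituitary genes thus varied widely between ganglia, with a mean r with the red cell genes near 0.

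**Figure D5:**
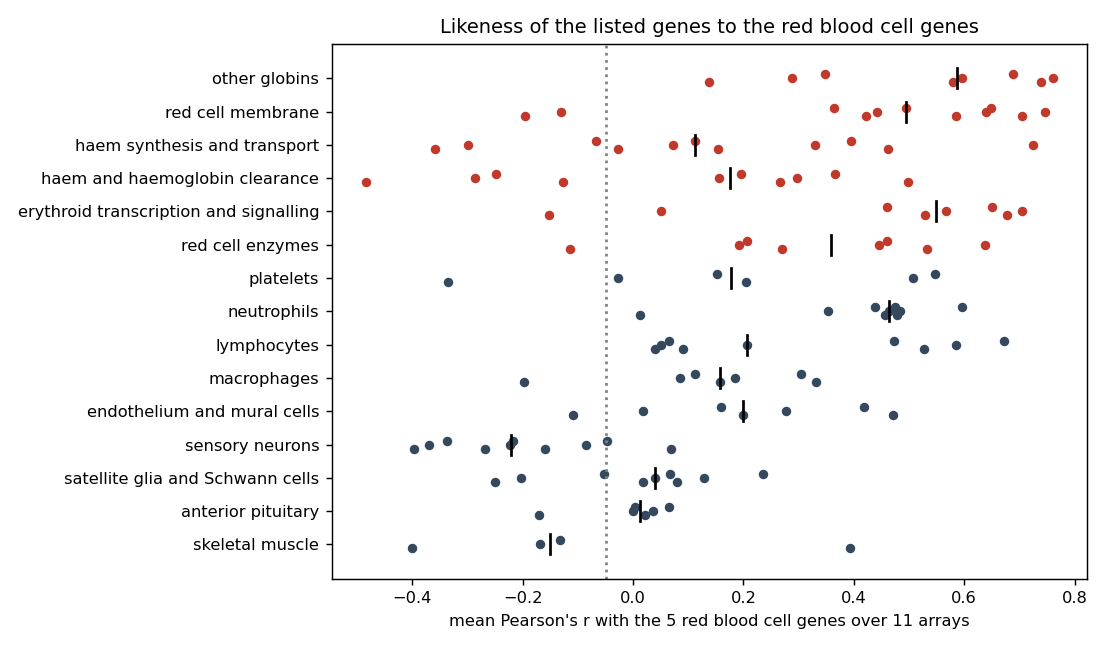
The mean Pearson's r of each listed gene with the 5 red blood cell genes over the 11 arrays (x axis), for the red cell lists (red points) and lists of other cell types (dark points). Bars mark the median of each list and the dotted line that of all probes (-0.05). The other globin, erythroid transcription and membrane lists have the highest medians, 0.587, 0.549 and 0.495, and sensory neurons the lowest, -0.22.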

How the data were processed

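The values were intensities of 11 one-colour arrays of TRG RNA (labelled with Cy3 after random priming, per the labels). The intensity values were deposited by the authors as scanner output (Agilent Feature Extraction 11.0.1.1), with the background subtracted and no normalisation between arrays, beside a table of intensities quantile normalised by the authors with limma. The median signal and median background of each spot, and flags of outlier, saturated and well-above-background spots, are among the other columns deposited.

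The 42136 non-control spots were used. Outlier spots were set to missing, log2 processed signals were quantile normalised and the spots of a probe averaged. The groups were compared over all 24684 probes with limma 3.58.1 (R 4.3.3) without covariates, with Benjamini-Hochberg adjustment, which was first tested on simulated data. Correlations used 100000 permutations, or all of them for 6 arrays. Python 3.11.15, scipy 1.17.1 and pandas 2.3.3 made the tables. Accessions were given symbols from a RefSeq table of another assembly than the file headers name, for names only. The number of arrays limits the precision.

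Named genes were every member, from each red cell list the genes past the threshold (or the smallest p) and the 3 with the highest mean r, the 10 highest and 5 lowest probes, and the extremes of each other list. Some genes that this rule names are not reported here. Other genes were named after their values were seen. The members and lists were chosen with earlier results of these data known. The files used have no mean signal column, so the median signal served for the normexp alternative and for that without background correction. The other alternatives were 75th percentile scaling, outlier spots kept, the authors' table, a filter on dim probes, an intensity trend, rat, slide and scan day terms, and leaving out each array. Those with no normalisation between arrays and with the CFA arrays alone were chosen after seeing the data.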

Additional observations from a re-analysis of the deposited data

Results flagged for a closer look

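In 25 genes the highest and the lowest ganglion of each group were checked for a gap to the next ganglion that exceeds Dixon's 95% critical value, 50 groups in all. Chance marks about 5% of groups of genes taken at random, a rate that does not hold for the genes most and least like the members, which were chosen for their r over these same arrays. None of the 5 red blood cell genes was marked. Contralateral rat 6 stood apart upward from the other contralateral ganglia in 4 of the genes most like them, at a log2 signal of 13.35 for Alox15 (next 11.18), 16.37 for Ybx3 (next 15.40), 13.44 for Rbm38 (next 11.49) and 10.57 for Cthrc1 (next 9.68). The same ganglion stood apart downward at 11.51 for Ankrd34b (next 12.58), one of the genes least like the members. Gfi1b was high in CFA rat 1, at 9.76 (next 9.0), and Pklr was low in contralateral rat 5, at 4.01 (next 5.47). These 7 values were marked by the same gap measure, and no explanation was tested.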

How the results depend on the processing

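No alternative brought a red blood cell gene to an unadjusted p of 0.05 or less, and the precision is limited by the number of arrays. Alas2 and Epb42 stayed negative throughout, from -0.76 to -0.14 and from -0.93 to -0.21. Equal rat numbers mark the same animal, and the rat as a replicate block gave -0.56 for Alas2, -0.66 for Epb42, -0.17 for Hba-a1, -0.17 for Slc4a1 and 0.03 for Hbb. It changed no call, but the unadjusted limma p fell from 0.283 to 0.0678 for Epb42 and from 0.331 to 0.0818 for Alas2. With that block the unadjusted limma p was 0.670 for Hba-a1, 0.682 for Slc4a1 and 0.803 for Hbb. After removal of the group means, a rat's sides correlated over 0.1 in 1 of 5 rats (0.133 in rat 6) and at -0.0833 to -0.00933 in the others. In 0 of 5 rats was the rat's own contralateral array the best match of its CFA array, but no rat had both sides on 1 slide.

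The sign of Hbb turned to 0.0188 with normexp and with no background correction alike, 0.0332 with the replicate block, 0.0218 with the slide as a block or within slide 2, and 0.125 with the scan day as a block or within it. Leaving out 1 array gave -0.0710 to 0.0332 for Hbb, -0.286 to 0.204 for Hba-a1 and -0.342 to 0.442 for Slc4a1, with the sign turned without contralateral rat 6 (0.204, 0.442 and, for Hbb, 0.0178), without CFA rat 5 (0.000332, 0.0775 and 0.0305), for Hba-a1 and Slc4a1 without CFA rat 2 (0.174 and 0.266), and for Hbb without contralateral rat 3, contralateral rat 5 or CFA rat 8 (0.0284, 0.0147 and 0.0332). Without normalisation between arrays Slc4a1 was at 0.0458. Within slide 2 Hba-a1 moved to -0.91. Gfi1b turned to 0.27 with the slide and 0.32 with the scan day as a block. The cause was not tested.

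The count of red cell list genes past the study's threshold was 0 to 1 in either direction when 1 array was left out (Xk higher without CFA rat 1 or 6, Pklr lower without contralateral rat 5 or CFA rat 6) and 0 under all other settings run. Of all 24684 probes, 330 to 796 passed that threshold when 1 array was left out, against 498 with all arrays. The number of list genes at an unadjusted limma p of 0.05 or less, 5, was 10 with the replicate block, 3 with normexp, no background correction or the slide as a block, 2 with the scan day as a block, 0 without normalisation between arrays and 3 to 10 with 1 array left out. The share of all probes at that limit was not computed under these alternatives. Normexp and no background correction left 16 and 47 of all probes past the study's threshold, against 498. The median r of the 10 pairs, 0.877, was 0.691 without the farthest arrays and 0.812 to 0.937 with 1 array left out.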
